A study of Mus musculus with 12 samples.

Results

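Cytosolic ribosomal proteins are the protein part of the ribosome that translates every mRNA made in the nucleus. They were taken as all protein-coding genes whose symbol starts with Rpl or Rps and a number, together with Rplp0, Rplp1, Rplp2 and Rpsa, and without pseudogenes, genes named as like genes and the Rps6k kinases. This rule gave 79 genes of the 55401 gene IDs in the count files, of which 46 belong to the large subunit and 33 to the small subunit. Of the 79 genes, 76 were the main genes of their protein and 3 were retrogenes, copies made by reverse transcription (Rps27rt, Rpl37rt and Rps23rg1). The names Rpl41 and Rpl32l fit the rule but could not be paired with a gene ID.

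The RNA came from subcutaneous white adipose tissue (scWAT) of female mice that were 16 weeks old when the housing began. Jmjd1a +/+ mice carried the normal histone demethylase JMJD1A, and Jmjd1a HY/HY mice carried, in all their cells, a histidine-to-tyrosine change that leaves the protein without its demethylase activity. Mice of both genotypes were acclimated to 30°C, which is thermoneutral for mice, for 1 week, and were then housed at 8°C or kept at 30°C for 1 week, with 3 mice in each of the 4 groups. The design asks what prolonged cold does to scWAT, in which it brings out beige, heat-producing adipocytes, and what the demethylase activity adds to that. The HY/HY mice came from a single mutant line, and a point mutation leaves the Jmjd1a mRNA in place, so its level is no check of the genotype labels.

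A cytosolic ribosome holds a single copy of nearly every one of these proteins, and the cell makes them in matched amounts. Their mRNAs are short, very abundant and long-lived, and most begin with a terminal oligopyrimidine (TOP) tract, a C followed by a run of C and T letters. Through this tract the kinase complex mTORC1 and the binding protein LARP1 set how strongly the mRNAs are translated and how well they are kept, so the mRNA level alone does not give the rate of protein synthesis. Several of these genes, Rpl32, Rplp0, Rpl13a and Rps18 among them, are often used as stable references in qPCR, and Rpl32 served as a reference in the present study.

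The sequences around the annotated start of transcription show where such a tract stands near it and where it does not (RefSeq, build GRCm38.p6; an entry was matched for 59 of the 79 genes). Each window below runs 5′ to 3′ on the gene's strand, from 30 bases before the start through the first 20 transcribed bases. Capitals mark the longest unbroken run of C and T letters that touches the stretch from 10 bases before to 10 bases after the start. Rps6, Rps18 and Rplp2 were among the genes chosen for description whatever their values, Rps21 and Rps3a1 had the largest falls in the cold, and Rps2 and Rpl19 stood out from the other genes at 8°C.
Rps6, chr4:86857348-86857397, minus strand: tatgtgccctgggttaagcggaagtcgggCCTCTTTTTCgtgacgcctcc
Rps18, chr17:33955646-33955695, minus strand: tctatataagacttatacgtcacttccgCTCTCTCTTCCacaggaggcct
Rplp2, chr7:141447621-141447670, plus strand: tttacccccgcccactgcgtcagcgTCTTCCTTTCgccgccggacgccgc
Rps21, chr2:180257349-180257398, plus strand: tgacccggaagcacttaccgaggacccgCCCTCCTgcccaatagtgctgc
Rps3a1, chr3:86142649-86142698, minus strand: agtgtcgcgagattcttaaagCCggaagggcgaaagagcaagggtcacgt
Rps2, chr17:24720033-24720082, plus strand: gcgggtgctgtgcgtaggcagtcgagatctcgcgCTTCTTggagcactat
Rpl19, chr11:98026680-98026729, plus strand: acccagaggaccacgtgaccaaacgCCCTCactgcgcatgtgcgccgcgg

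A run of at least 6 such letters touched this stretch in 34 of the 59 genes (57.6%), and in 29.9% of the 27025 promoters of all genes. The start base was a C in 22 of the 59 (37.3%), against 16.2% of all promoters. In the printed windows the runs of Rps6, Rps18 and Rplp2 are 10, 11 and 10 bases long, whereas that of Rps3a1 is only 2 bases. An annotated start can lie several bases from the start used in this tissue, so a short run in the window does not show that the mRNA lacks the tract.

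Within the whole 300 bases of each promoter and on either strand, CTTTCC stood in 27 of the 59 genes (45.8%, against 26.3% of all promoters), and CTCTTTCC, which contains it, in 9 (15.3%, against 3.04%). CCGGAAG, the core letters of sites of the ETS factors such as GABP, stood in 22 (37.3%, against 9.12%), and AAGATGG, the core letters of YY1 sites, in 8 (13.6%, against 6.475%). GGGCGG, the letters of SP1 sites, stood in 33 (55.9%, against 35.9%), and the TATA box letters TATAAA in 5 (8.47%, against 14.2%). These shares describe letters, not bound sites.

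Between 13592629 and 26352081 read pairs per library were counted on genes, and 16540 genes had enough counts for the tests. Levels are given as CPM, the counts of a gene per 1000000 counted pairs, after TMM scaling, which sets the library sizes so that most genes do not move, and 78 of the 79 ribosomal protein genes were tested. The retrogene Rps23rg1 failed the filter on low counts, with at most 0.31 CPM in any library. Among the 8 markers of white adipocytes none was at 0 and their summed level was 18530 to 65980 CPM in the 12 libraries, while the summed level of the 12 lymph node markers did not pass 38.96 CPM. The library +/+ 30°C replicate 2 held 1335 CPM of the skeletal muscle markers, against at most 23.6 CPM in the others, and each count of genes called below was also taken without it.

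Of the 78 tested genes, 73 lay between 138.7 and 1166 CPM in every library, the highest value being that of Rplp0 in +/+ 30°C replicate 2. Per kilobase of coding length, Rps24 had the highest mean level over the 12 libraries (2161 CPM per kb), followed by Rplp2 (2130) and Rplp1 (2039), the last of these being the acidic proteins of the ribosomal stalk. The median over 77 genes with a coding length was 881 CPM per kb, and 73 of them were at or above 377 CPM per kb, the level of Rpl15. The order of the genes was nearly the same in all libraries, with a Spearman coefficient of at least 0.937 between any pair of libraries over the 78 genes, given as a description.

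The other 5 tested genes were far lower. Rps10 had 2.76 to 6.22 CPM, Rpl13a 6.495 to 15.2 CPM, Rpl24 7.65 to 15.01 CPM, and the retrogenes Rps27rt and Rpl37rt 3.27 to 9.38 and 12.7 to 24.5 CPM. Per kilobase of coding length the lowest tested gene was Rps10 (8.14 CPM per kb), followed by Rpl13a (18.2) and Rpl24 (24.8). Rps10, Rpl13a and Rpl24 encode proteins that ribosomes carry in the same number as the others, and their counts were far below those of their partners.

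The genes of the large and small subunits together took a smaller part of all counted pairs in the cold. In +/+ mice at 30°C they took 4.69%, 5.23% and 4.31% of the counts, and at 8°C 2.71%, 2.56% and 2.67%, so the groups did not overlap. In HY/HY mice at 30°C the shares were 4.16%, 4.49% and 2.65%, and at 8°C 2.85%, 2.74% and 2.20%. Here the groups overlapped, because HY/HY 30°C replicate 3 lay below 2 of the 3 libraries from 8°C. The group means were 4.74% ± 0.466 (SD, n = 3) for +/+ and 3.77% ± 0.986 for HY/HY at 30°C, and 2.65% ± 0.0798 and 2.60% ± 0.351 at 8°C. In bulk tissue a smaller share can come from fewer cells rich in these mRNAs or from less of them per cell, and these cannot be told apart.

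**Figure D1:**
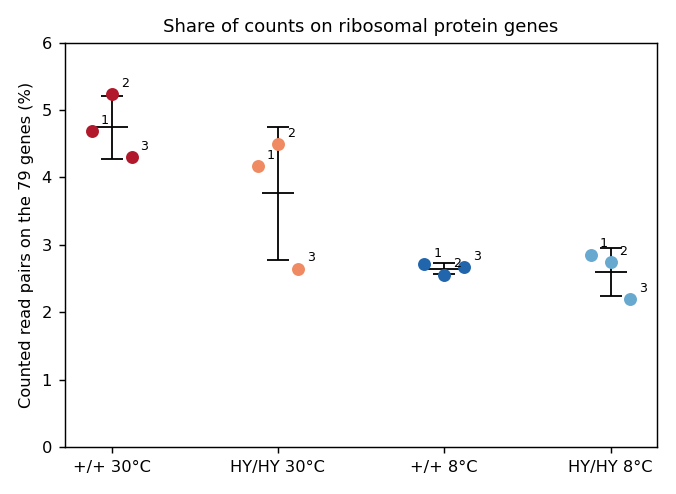
Percentage of counted read pairs on the 79 ribosomal protein genes in each of the 12 libraries, by genotype and temperature; points are libraries with their replicate number, and bars show the mean and SD of 3. The 3 +/+ libraries at 30°C, at 4.31% to 5.23%, lie above all 6 libraries at 8°C, at 2.20% to 2.85%, and HY/HY 30°C replicate 3, at 2.65%, lies among the latter.

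Genes of mitochondrial DNA had larger shares in the cold in +/+ mice and take counts from the same total. They took 11.4% to 13.5% of the counts in +/+ mice at 30°C and 16% to 18% at 8°C. When they were left out of the total, the mean share of the ribosomal protein genes was 5.43% in +/+ mice at 30°C and 3.18% at 8°C, against 4.25% and 2.97% in HY/HY mice.

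Cold in +/+ mice lowered 52 of the 78 genes and raised none (edgeR quasi-likelihood test, adjusted p below 0.05). Over all 16540 genes, 10.9% were lower and 13.2% higher by the same rule, so 66.7% of the ribosomal protein genes stood against 10.9% of all genes. The median log2 fold change of the 78 genes was -0.54, or 0.689 times the level at 30°C, and that of all genes tested was -0.07. In 72 of the 78 genes (92.3%) all 3 libraries at 8°C were below all 3 libraries at 30°C, against 22.7% of all genes. The mice of each group were separate animals, and the tests measure the spread between them.

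The fall was shared by both subunits. Of the 46 genes of the large subunit 30 were lower, with a median log2 fold change of -0.51, and of the 32 tested genes of the small subunit 22 were lower, with a median of -0.58. The interquartile range of the log2 fold changes ran from -0.61 to -0.40. The last gene past the threshold was Rpl6 (adjusted p = 0.0463, edgeR) and the first outside it was Rps24 (adjusted p = 0.051), and 11 of the 26 genes that were not called had an adjusted p below 0.1.

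The number of calls depended on single libraries. With each of the 12 libraries left out in turn, between 19 and 59 genes were lower and none was higher, where 4.32% to 13.3% of all genes were lower. The number was 33 without +/+ 30°C replicate 1, 23 without +/+ 30°C replicate 2, and 25, 19 and 21 without +/+ 8°C replicates 1, 2 and 3, while the median log2 fold change stayed between -0.55 and -0.50. In these 5 settings 4.32% to 6.83% of all genes were lower. A fold limit of 0.67 added to the adjusted p left 28 of the 78 genes, against 6.93% of all genes.

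**Figure D2:**
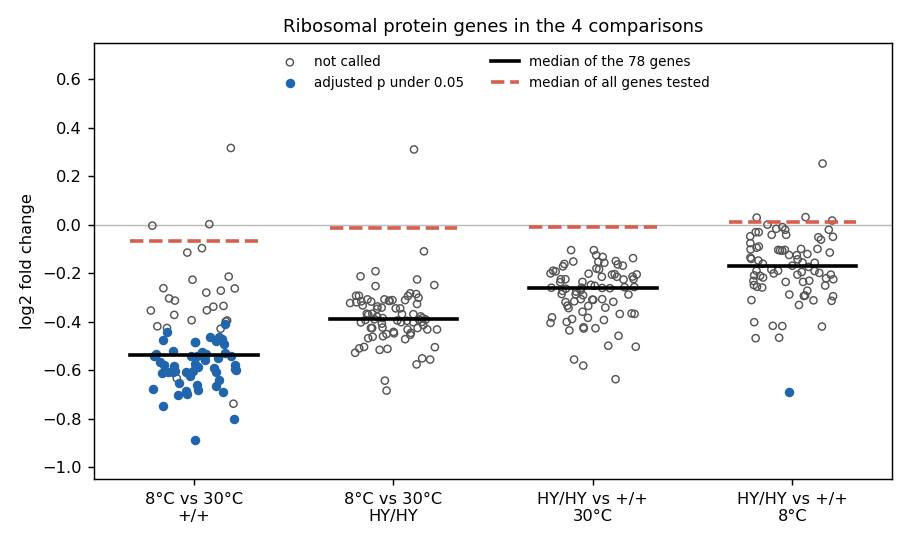
Log2 fold changes of the 78 tested ribosomal protein genes in the 4 comparisons; filled points have an adjusted p below 0.05 in edgeR's quasi-likelihood test, black lines are medians of the 78 genes and dashed lines medians of all 16540 genes tested. The cold comparison in +/+ mice has 52 filled points around a median of -0.54, and the genotype comparison at 8°C has 1.

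Among the small-subunit proteins, Rps21 and Rps3a1 fell most. Rps21, a small protein of the cytosolic face of the 40S subunit, had 548, 624 and 515 CPM in the +/+ libraries at 30°C and 344, 279 and 289 CPM at 8°C. Its log2 fold change was -0.89 ± 0.17 (SE; adjusted p = 0.00403, edgeR). Rps3a1, which lies near the mRNA exit, had 1013, 1134 and 1002 CPM at 30°C and 586, 592 and 627 CPM at 8°C, a log2 fold change of -0.80 ± 0.15 (adjusted p = 0.00321, edgeR). For both genes every library at 8°C was well below every library at 30°C.

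Rps26 was also among the 6 largest falls. This protein, which sits where the mRNA leaves the ribosome, went from 289, 341 and 305 CPM to 184, 197 and 193 CPM (log2 fold change -0.70 ± 0.14, adjusted p = 0.0053, edgeR). No library at 8°C reached the lowest library at 30°C.

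Of the large subunit, Rpl10a and Rpl12 fell most. Rpl10a, a protein of the mobile L1 stalk, had 370, 385 and 392 CPM at 30°C and 238, 217 and 228 CPM at 8°C (log2 fold change -0.75 ± 0.16, adjusted p = 0.00638, edgeR). Rpl12, at the base of the stalk that binds elongation factors, had 796, 883 and 775 CPM at 30°C and 490, 496 and 525 CPM at 8°C (-0.70 ± 0.17, adjusted p = 0.0129). Their values at 8°C were again tight and separate from those at 30°C.

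The 3 stalk proteins that stand on Rpl12 fell by like amounts. Rplp0 had 1010, 1166 and 1001 CPM at 30°C and 703, 681 and 700 CPM at 8°C (log2 fold change -0.61 ± 0.14, adjusted p = 0.00932, edgeR). Rplp1 had 827, 998 and 853 CPM against 629, 577 and 623 CPM (-0.55 ± 0.15, adjusted p = 0.021). Rplp2 had 831, 898 and 1061 CPM against 648, 650 and 645 CPM (-0.52 ± 0.14, adjusted p = 0.0178). All of them separated the temperatures fully in +/+ mice, although the calls of Rplp1 and Rplp2 were lost in some of the fits that left out a library.

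Rps6, the 40S protein that S6 kinase phosphorylates when mTORC1 is active, went from 516, 542 and 494 CPM to 333, 346 and 376 CPM (log2 fold change -0.56 ± 0.16, adjusted p = 0.0238, edgeR). Rps18, of the head of the 40S subunit, went from 751, 723 and 633 CPM to 485, 442 and 476 CPM (-0.59 ± 0.17, adjusted p = 0.0296). Rpl32 went from 509, 494 and 391 CPM to 330, 317 and 345 CPM (-0.49 ± 0.16, adjusted p = 0.0435), which made this reference gene of the study lower at 8°C than at 30°C in every +/+ library. Its call was close to the threshold and was lost with no filter on low counts and with both strands counted together.

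Rpsa, also known as the laminin receptor, missed the threshold, with 924, 998 and 1005 CPM at 30°C and 765, 802 and 876 CPM at 8°C (log2 fold change -0.26 ± 0.14, adjusted p = 0.186, edgeR). Rpl13a had 14.6, 15.2 and 13.9 CPM at 30°C and 12.6, 10.03 and 11.7 CPM at 8°C (-0.35 ± 0.18, adjusted p = 0.161). Both were lower at 8°C in all 3 libraries, by less than most other genes.

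A handful of genes, picked here after their values were seen, did not share the fall. Rpl19, of the large subunit, had 266, 298 and 276 CPM at 30°C and 269, 279 and 293 CPM at 8°C in +/+ mice, a log2 fold change of 0.00 ± 0.12, and Rpl36 had 302, 277 and 262 CPM against 302, 261 and 275 CPM (-0.00 ± 0.15). Rps2, at the mRNA entry, had 789, 813 and 623 CPM against 543, 714 and 798 CPM (-0.11 ± 0.18). In all 3 genes the temperatures overlapped.

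Relative to the geometric mean of the 78 genes within each library, a measure that no scaling of the libraries can change, these genes had higher values in the cold and others lower ones. In +/+ mice the relative level of Rpl19 was 0.49 log2 units higher at 8°C than at 30°C, that of Rpl36 0.48 and that of Rps2 0.36. Rps21 moved by -0.40 and Rps3a1 by -0.31 on the same scale. These are descriptions of unequal change, taken from the ends of the ranked list, with no test.

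Rpl24 was the gene with the highest value, at 14.2, 11.04 and 7.65 CPM at 30°C and 14.3, 15.01 and 11.7 CPM at 8°C (log2 fold change 0.32 ± 0.19, adjusted p = 0.247, edgeR). Its libraries overlapped, and its level was far below that of the other genes of the subunit.

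**Figure D3:**
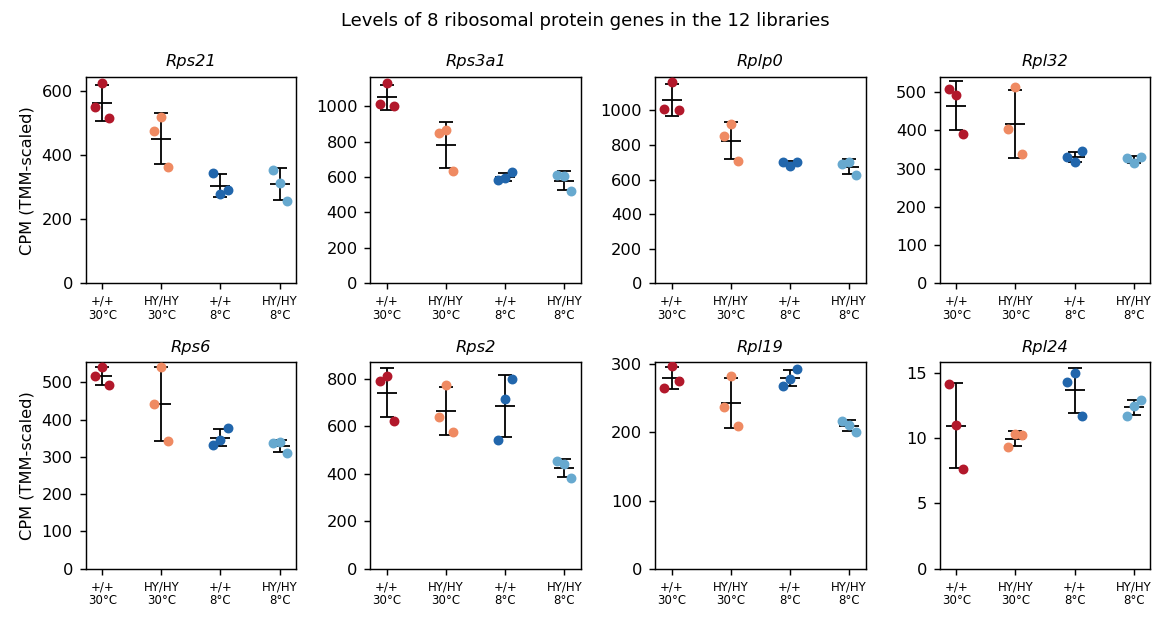
TMM-scaled CPM of 8 ribosomal protein genes in the 12 libraries, by genotype and temperature; points are libraries and bars the mean and SD of 3, with each axis starting at 0. Rps21, Rps3a1, Rplp0, Rpl32 and Rps6 are lower in all +/+ libraries at 8°C than at 30°C, whereas Rpl19 and Rpl24 are not, and Rps2 is lowest in HY/HY mice at 8°C.

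In HY/HY mice the cold comparison called none of the 78 genes, where 0.0726% of all genes were lower and 0.181% were higher (edgeR). In that fit 58 of the 78 had an unadjusted p below 0.05. DESeq2 called 18, all lower, where it called 0.985% of all genes lower. The median log2 fold change was -0.39, or 0.764 times the level at 30°C, against -0.01 for all genes, and 77 of the 78 genes had a value below 0, with Rpl24 as the exception (0.31 ± 0.19). In 35 of the 78 (44.9%) the 3 libraries at 8°C were all below those at 30°C, against 9% of all genes. The smallest adjusted p was 0.148, for Rpl13 and Rpl35a.

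The number of calls in HY/HY mice depended on HY/HY 30°C replicate 3. In 75 of the 78 genes it was the lowest of the 3 HY/HY libraries at 30°C, while replicate 2 was the highest in 76. The median coefficient of variation over the genes was 17.9% in this group, against 6.24% in +/+ at 30°C, 4.29% in +/+ at 8°C and 9.29% in HY/HY at 8°C. Without replicate 3, 32 of the 78 genes were lower in the cold and none was higher, where 1.64% of all genes were lower, and the median log2 fold change was -0.50. Without HY/HY 30°C replicate 2, the highest of the group, none was called and the median was -0.26.

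The same library stood apart in its cell type markers. Its 8 white adipocyte markers summed to 63100 CPM, against 32140 and 18530 CPM in HY/HY 30°C replicates 1 and 2, and its 8 mammary epithelium markers to 546 CPM, against 1447 and 1532 CPM. It also had 16.8% of its counts on genes of mitochondrial DNA, against 9.30% and 9.755%. It also had the highest share of aligned pairs lost to several places (44.6%). The part of these differences in the low ribosomal protein values was not tested.

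Rplp0 had 850, 920 and 707 CPM in HY/HY mice at 30°C and 693, 705 and 625 CPM at 8°C (log2 fold change -0.29 ± 0.14, adjusted p = 0.357, edgeR). Rpl32 had 404, 513 and 337 CPM at 30°C and 327, 314 and 330 CPM at 8°C (-0.37 ± 0.16, adjusted p = 0.321). Rps6 had 442, 542 and 343 CPM against 338, 340 and 310 CPM (-0.43 ± 0.16, adjusted p = 0.245). In all 3 genes each library at 8°C lay below each at 30°C, but the third library at 30°C came close to those from the cold.

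Rps21 had 473, 518 and 361 CPM in HY/HY mice at 30°C and 354, 314 and 255 CPM at 8°C (log2 fold change -0.55 ± 0.17, adjusted p = 0.191, edgeR). Rps18 had 534, 705 and 433 CPM against 478, 412 and 396 CPM (-0.38 ± 0.17, adjusted p = 0.341). The values of Rps18 at the 2 temperatures overlapped. The other genes described whatever their values, Rplp1, Rplp2, Rpsa and Rpl13a, had log2 fold changes of -0.29, -0.40, -0.35 and -0.32.

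The cold effect itself did not differ detectably between the genotypes for any of the 78 genes. The interaction term, which is the cold effect in HY/HY minus that in +/+, called none of them lower or higher, where 2.07% of all genes were lower and 0.169% higher (edgeR). None had an unadjusted p below 0.05, and the smallest adjusted p was 0.364, for Rps2 (edgeR). DESeq2 called none, where it called 4.3% of all genes lower. The median interaction was 0.13, against 0.04 for all genes, and without HY/HY 30°C replicate 3 it was -0.001. For Rps21 the difference was 0.34 ± 0.24 and for Rplp0 0.32 ± 0.20 log2 units.

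**Figure D4:**
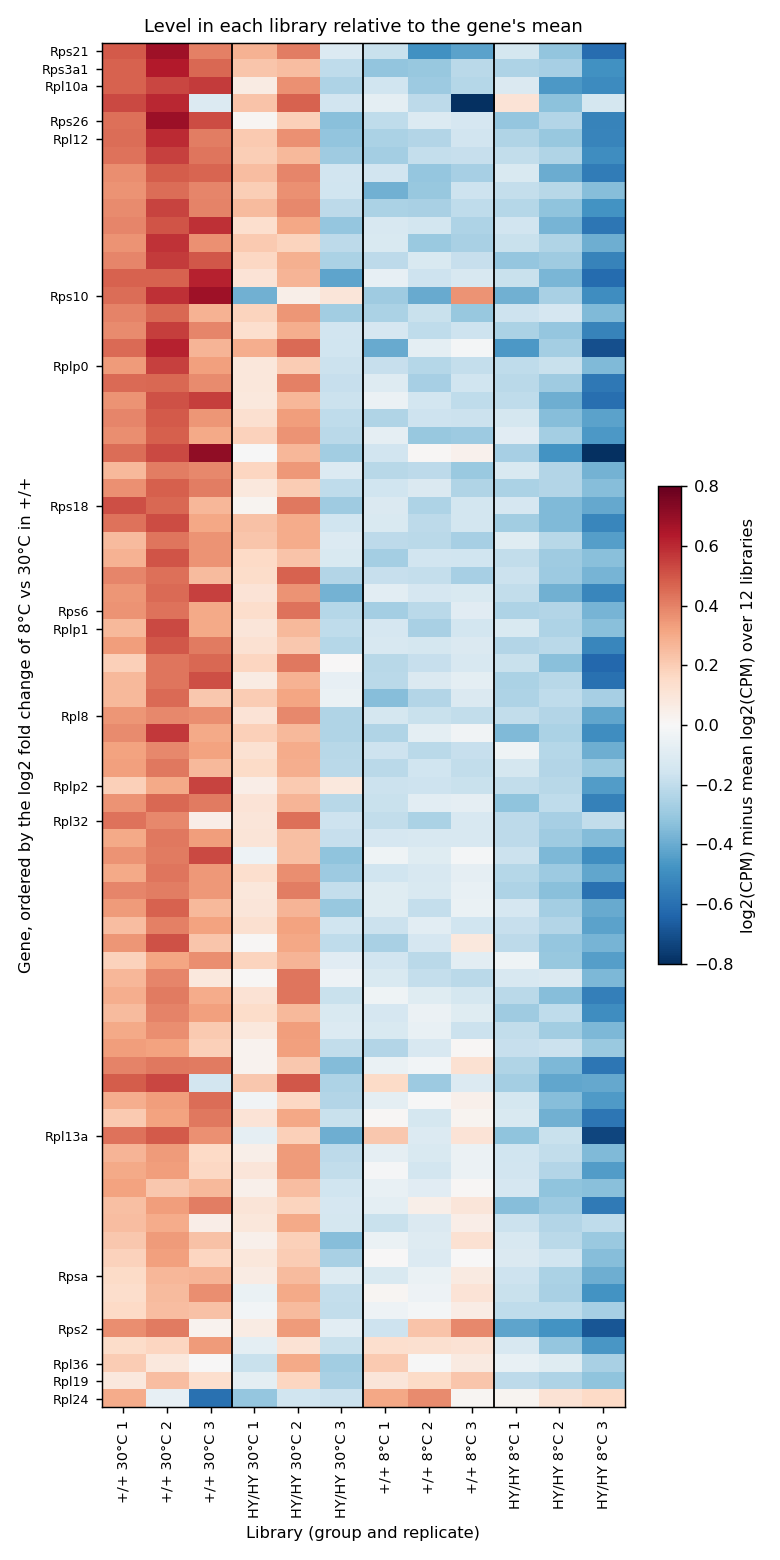
Level of each of the 78 genes (rows, ordered by the log2 fold change of cold in +/+ mice, with the genes described in the text labelled) in each of the 12 libraries (columns), as log2(CPM) minus the gene's mean over the libraries. The highest library is one of the 3 +/+ libraries at 30°C for 66 rows, HY/HY 8°C replicate 3 is the lowest column for 69, and HY/HY 30°C replicate 3 is the lowest of its group for 75.

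Between genotypes at 30°C, every one of the 78 genes had a log2 fold change below 0 in HY/HY against +/+ mice, but no gene was called (edgeR), where 0.49% of all genes were lower and 0.568% higher. The median log2 fold change was -0.26, or 0.834 times the +/+ level, against -0.01 for all genes, and 25 of the 78 had an unadjusted p below 0.05. DESeq2 called 6, all lower, where it called 3% of all genes lower. In 31 of the 78 genes (39.7%) the HY/HY libraries were all below the +/+ libraries, against 10.6% of all genes. Without HY/HY 30°C replicate 3 the median was -0.13, and no gene was called. The cold comparison in +/+ mice and this one share the +/+ libraries at 30°C.

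The largest of these differences belonged to Rps10, with 5.30, 5.85 and 6.22 CPM in +/+ and 2.98, 4.03 and 4.16 CPM in HY/HY mice (difference of -0.64 ± 0.22 on the log2 scale, adjusted p = 0.155, edgeR), and to Rps26, with 215, 242 and 168 CPM in HY/HY mice against the +/+ values given above (-0.58 ± 0.14, adjusted p = 0.0718). Both were named here for their values. Rplp0 differed by -0.36 ± 0.14, Rps18 by -0.33 ± 0.17, Rplp1 by -0.31 ± 0.15, Rplp2 by -0.24 ± 0.14, Rps6 by -0.23 ± 0.16, Rpl32 by -0.15 ± 0.16, Rpsa by -0.15 ± 0.14 and Rpl13a by -0.50 ± 0.17, all with an adjusted p of at least 0.161.

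At 8°C a single gene, Rps2, was called lower in HY/HY than in +/+ mice, and none was called higher. Of all genes 5.45% were lower and 1.91% higher, so 1.28% of the ribosomal protein genes is below the background. Rps2 had 543, 714 and 798 CPM in +/+ and 455, 439 and 380 CPM in HY/HY mice (log2 fold change -0.69 ± 0.18, adjusted p = 0.0404, edgeR), with no overlap. The call was lost with library totals in place of TMM, and when +/+ 30°C replicate 1, +/+ 8°C replicate 2 or 3, or any of the HY/HY libraries at 8°C was left out, with no gene called in these settings.

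The median log2 fold change of the 78 genes between genotypes at 8°C was -0.17, against 0.01 for all genes, and with library totals it was -0.03. It was -0.10 without HY/HY 8°C replicate 3 and -0.23 without HY/HY 8°C replicate 1. In 36 of the 78 genes (46.2%) all HY/HY libraries were below all +/+ libraries, against 19% of all genes. Rpl19, which was not lower in +/+ mice in the cold, had 217, 212 and 201 CPM in HY/HY mice at 8°C, below every +/+ library. Its log2 fold change of -0.42 ± 0.12 (adjusted p = 0.0649, edgeR) missed the threshold. Rpl32, Rplp0 and Rplp1 differed by -0.03 ± 0.16, -0.04 ± 0.14 and -0.05 ± 0.15, and Rps6, Rplp2, Rps18, Rpsa and Rpl13a by -0.10, -0.12, -0.13, -0.24 and -0.47, none of them called.

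Over the 4 groups, 65 of the 78 genes had their means in the order +/+ at 30°C, HY/HY at 30°C, +/+ at 8°C and HY/HY at 8°C, from highest to lowest. The highest mean was that of +/+ at 30°C in 76 genes and the lowest that of HY/HY at 8°C in 73. The neighbours HY/HY at 30°C and +/+ at 8°C overlapped in the share of counts, which is not TMM-scaled. They also overlapped in the summed CPM of the genes (28930 to 40770 and 29700 to 30690), so single libraries do not keep this order. The genotypes at 8°C overlapped in the share, but in summed CPM the HY/HY libraries lay lower, at 24250 to 28800.

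Markers of adipocytes and of other cells also differed between the groups. The 8 white adipocyte markers had median sums of 26430 CPM in +/+ and 32140 CPM in HY/HY mice at 30°C, and of 36070 and 48780 CPM at 8°C, which is the reverse of the order of most ribosomal protein genes. Their ranges overlapped between the temperatures in both genotypes, and the highest sum, 65980 CPM, was that of HY/HY 8°C replicate 3, the library with the lowest share of counts on the ribosomal protein genes. The 8 mammary epithelium markers, all detected, summed to 2086 to 3756 CPM in +/+ mice at 30°C and 1401 to 1539 CPM at 8°C, and to 546 to 1532 and 913 to 1328 CPM in HY/HY mice. The 6 beige adipocyte markers summed to 71.3 to 198 CPM in +/+ mice at 30°C and 8330 to 9240 CPM at 8°C, and to 60.8 to 231 and 525 to 1665 CPM in HY/HY mice. The 8 macrophage markers went from 254 to 271 CPM at 30°C to 206 to 214 CPM at 8°C in +/+ mice and lay at 281 to 494 and 309 to 439 CPM in HY/HY mice. The 3 matched erythrocyte markers summed to 96.0 to 346 CPM over all libraries. The part of these cells in the ribosomal protein levels was not tested.

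The choice of reads counted can affect this family more than most, since its genes have many processed pseudogenes. The deposited counts leave out read pairs that align to several places, and these made up 26.7% to 32.2% of all pairs per library. Of the aligned pairs they were 38.03% to 40.9% in +/+ mice at 30°C and 41.4% to 43.9% at 8°C, and 35.6% to 44.6% and 38.3% to 40.5% in HY/HY mice, with the highest value in HY/HY 30°C replicate 3. The part of this loss in the lower counts was not tested. The comparison by copies that follows uses an assumed fragment length and does not measure the pairs lost, so it cannot decide this. To see which genes this touches, the coding sequence of each gene was cut into fragments of 150 bases with a 50-base read at each end, and the reads were looked up in the mouse genome outside the gene itself. The genome at hand was NCBIM37, an older build than the mm10 of the files, and exact copies alone were counted. Copies that differ by a base and reads across exon junctions were therefore judged only in part.

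By this measure the median gene had 74.8% of its fragments with a copy of both reads elsewhere, over 78 genes. For 23 tested genes it was every fragment, and for 3 genes, Rpl8 and Rps21 among them, it was none. Over 77 genes the Spearman coefficient of this share was -0.03 with the level per kilobase and 0.01 with the cold change in +/+ mice, given as descriptions over genes of the same libraries. In the cold comparison in +/+ mice all 3 genes without a copied fragment were lower, against 10.9% of all genes.

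Rpl8, next to the peptidyl transferase centre, had 668, 683 and 678 CPM in +/+ mice at 30°C and 475, 462 and 457 CPM at 8°C (log2 fold change -0.54 ± 0.15, adjusted p = 0.025, edgeR). The temperatures were fully separated, as they were for Rps21. Among the 11 genes with copies of under 20% of their fragments, 9 were lower with a median of -0.54. Among the 43 between 20% and 100%, 25 were lower with a median of -0.48. Among the 23 with copies of every fragment, 18 were lower with a median of -0.57, where 10.9% of all genes were lower.

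**Figure D5:**
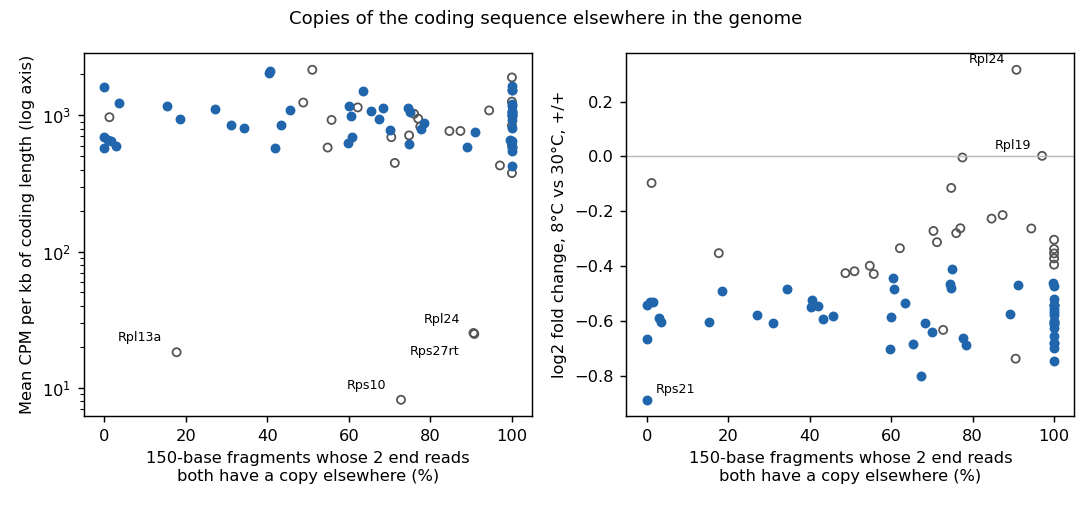
Left, mean CPM per kb of coding length on a log axis, and right, log2 fold change of cold in +/+ mice, both against the percentage of 150-base coding fragments whose end reads have an exact copy outside the gene in NCBIM37, for 77 genes; filled points are genes with an adjusted p below 0.05 in the cold comparison. Rps10, Rpl13a, Rpl24 and Rps27rt lie far below the other genes on the left, and the changes on the right show no trend with the percentage (Spearman coefficient 0.01).

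Copies covered 72.8% of the fragments of Rps10 and 90.8% of those of Rpl24, but 17.7% of those of Rpl13a. The last of these is close to the 18.5% of Rpl32, which had 314 to 513 CPM. Overlap with other genes in the annotation used for counting, which also removes reads, was not tested. In the older GENCODE M1, exons of Rpl13a overlapped 4 other genes on the same strand (Flt3l, Snord32a, Snord33 and Snord34). Those of Rps10 and Rpl24 overlapped none. Rpl7a overlapped 3 there and had 436 to 783 CPM. For Rps10, Rpl13a and Rpl24, and for the retrogenes, the counts should not be read as the amount of mRNA.

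Reads that did fall on annotated pseudogenes were few. Of 192 pseudogenes assigned by name to 57 of the genes, 171 had counts, and the median family had 0.962% of its counts on them. The exceptions over 5% were Rps10 (50.4%), Rpl38 (13.8%), Rpl17 (5.85%), Rps16 (5.29%) and Rps4x (5.04%). With the pseudogene counts added to each gene before the fit, 54 of the tested genes were lower in the cold in +/+ mice. In that fit 10.9% of all genes were lower, and the median log2 fold change of the family was -0.54.

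Some proteins of the cytosolic ribosome have names outside the rule. Fau, which is cleaved to ribosomal protein S30, had 413, 459 and 504 CPM in +/+ mice at 30°C and 276, 286 and 277 CPM at 8°C (log2 fold change -0.71 ± 0.15, adjusted p = 0.00676, edgeR). Rack1, a scaffold on the head of the 40S subunit, had 711, 710 and 648 CPM against 495, 471 and 460 CPM (-0.54 ± 0.17, adjusted p = 0.0367). Both fell as the main family did.

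Of the paralogs named as like genes, 5 of 7 were tested. Rps27l, a p53 target, rose in the cold in +/+ mice from 72.5, 72.9 and 71.7 CPM to 93.9, 92.0 and 92.3 CPM (log2 fold change 0.36 ± 0.07, adjusted p = 0.00558, edgeR) and was lower in HY/HY mice at 8°C, at 68.6, 68.5 and 69.2 CPM (-0.43 ± 0.07, adjusted p = 0.00655). Its groups were tight and did not overlap. Rpl22l1, a paralog of Rpl22, and Rpl7l1 had log2 fold changes of -0.10 and 0.09 in the cold in +/+ mice, and Rpl36al had 13 counts or fewer in every library.

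Rpl39l, best known from male germ cells, was rare but higher in HY/HY mice at both temperatures. It had 0.226, 0.180 and 0.743 CPM in +/+ mice at 30°C, 2.40, 1.75 and 1.45 CPM in HY/HY mice at 30°C, 1.19, 1.36 and 0.833 CPM in +/+ mice at 8°C and 4.53, 4.87 and 5.92 CPM in HY/HY mice at 8°C. HY/HY mice had more of it at 30°C (log2 fold change 2.35 ± 0.44, adjusted p = 0.0357, edgeR) and at 8°C (2.18 ± 0.40, adjusted p = 0.00839), and higher in the cold in +/+ mice (1.60 ± 0.47, adjusted p = 0.0281). The counts behind these values were 5 to 78 read pairs per library. Rpl3l, the form of Rpl3 in striated muscle, had 140 counts in +/+ 30°C replicate 2, the library with muscle markers, and at most 6 elsewhere, and Rpl10l had at most 2. Rps19bp1, a binding partner of Rps19 left out by the rule, had a log2 fold change of 0.07 in the cold in +/+ mice.

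Other mRNAs known to carry a TOP tract were looked at beside the ribosomal proteins. Of the 15 listed, 7 were lower and none higher in the cold in +/+ mice, where 10.9% of all genes were lower and 13.2% higher. Their median log2 fold change was -0.41. In HY/HY mice none was called, where 0.0726% of all genes were lower and 0.181% higher, and the median was -0.32. The 3 largest falls in +/+ mice were those of the elongation factor subunit Eef1b2 (-0.63 ± 0.13, adjusted p = 0.00496, edgeR), the initiation factor Eif4b (-0.56 ± 0.11, adjusted p = 0.00478) and the histone chaperone Nap1l1 (-0.49 ± 0.11, adjusted p = 0.00672). Nap1l1 was also higher in HY/HY than in +/+ mice at 8°C (0.46 ± 0.11, adjusted p = 0.0244, edgeR). It was the only call of the list there, where 1.91% of all genes were higher.

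Of 31 initiation factors, 3 were higher and 2 lower in the cold in +/+ mice, with a median log2 fold change of 0.15. Of 38 genes of ribosome assembly 2 were higher and 4 lower, with a median of -0.10. Neither list had a larger share of calls in either direction than all genes, of which 13.2% were higher and 10.9% lower, so the genes named from them are single calls. Eif5, Eif1ax and Eif2b4 rose by 0.57, 0.42 and 0.35 on the log2 scale, and Eif4a2 and Eif3g fell by 0.47 and 0.29. Among the assembly genes, the RNA polymerase I factor Rrn3 (0.55) and subunit Polr1d (0.49) rose, and the nucleolar proteins Nop56 (-0.54), Gar1 (-0.45) and Wdr43 (-0.42) were those that fell most. In HY/HY mice none of these genes was called in the cold.

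Of the 15 regulators around mTORC1, 4 rose and 1 fell in the cold in +/+ mice, where 13.2% of all genes were higher and 10.9% lower. Mtor itself had 37.4, 31.0 and 44.4 CPM at 30°C and 101, 98.8 and 106 CPM at 8°C (log2 fold change 1.44 ± 0.14, adjusted p = 5.19e-05, edgeR). In HY/HY mice it had 38.9, 46.7 and 50.7 CPM at 30°C and 59.7, 69.8 and 61.9 CPM at 8°C (0.49 ± 0.14, adjusted p = 0.157). The cold effects differed between the genotypes (interaction -0.95 ± 0.19, adjusted p = 0.0312, edgeR), and Mtor was lower in HY/HY than in +/+ mice at 8°C (-0.68 ± 0.14, adjusted p = 0.0138). Deptor, an mTOR inhibitor, rose in +/+ mice (0.99 ± 0.22, adjusted p = 0.00844, edgeR), had a log2 fold change of -0.90 ± 0.22 in HY/HY mice (adjusted p = 0.12), and was higher in HY/HY mice at 30°C (1.16 ± 0.22, adjusted p = 0.0394), with an interaction of -1.89 ± 0.32 (adjusted p = 0.0138). Akt1s1 and Rptor, partners of mTOR in the complex, rose by 0.40 and 0.37 on the log2 scale. Larp1, the TOP-binding protein, fell in +/+ mice (-0.35 ± 0.10, adjusted p = 0.0288, edgeR). These are mRNA levels and say nothing of kinase activity.

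Nuclear genes named as mitochondrial ribosomal proteins, with symbols that start with Mrpl or Mrps and a number, went the other way. They were listed by symbol alone, and whether each product, that of Mrps36 included, belongs to the mitochondrial ribosome was not checked. Of 76 tested, 66 were higher and none lower in the cold in +/+ mice, against 52 lower and none higher among the 78 cytosolic genes. Of all genes 13.2% were higher and 10.9% lower in that comparison. The median log2 fold change of the 76 was 0.75. The largest rises were those of Mrps36 (2.24 ± 0.23), Mrpl34 (1.71 ± 0.16) and Mrpl42 (1.53 ± 0.16). In HY/HY mice none was called, with a median of 0.21, where 0.181% of all genes were higher and 0.0726% lower. Between genotypes at 8°C 38 of the 76 were lower in HY/HY mice, with a median of -0.49, against 1 of the 78 cytosolic genes. Of all genes 5.45% were lower there. The interaction called 18 of the 76 lower, against none of the cytosolic genes and 2.07% of all genes.

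The length of an mRNA can bear on how it is recovered and counted. Genes other than the 78 with a coding length under 600 bases, 1966 in number, had a median log2 fold change of 0.04 in the cold in +/+ mice, with 188 lower and 415 higher, and those in the next class of length a median of -0.01. The longest class had a median of -0.09 in the same comparison. The part of length in the lower counts of the family was not tested. Between genotypes at 8°C the short genes had a median of -0.10, with 253 lower and 19 higher. The 33 tested genes with a run of at least 6 C and T letters at the start had a median of -0.53 in the cold in +/+ mice. The 25 with a shorter run had one of -0.54. Lower were 20 and 18 of these genes, against 10.9% of all genes.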

How the data were processed

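RNA-seq counts from scWAT of 12 mice were analysed, 3 for each genotype and temperature. Per the study's methods, TruSeq libraries were sequenced as 50-base read pairs, trimmed with fastp and aligned with STAR to mm10 with GENCODE M25; the submitters' processing notes list FastQC and StringTie. The deposited files hold the authors' STAR gene counts, 1 row per gene ID with separate columns for both strands, and pairs aligned to several places are not counted. The column of the second read's strand was used, which held 95.5% to 96.2% of the stranded counts. Of 55401 IDs, 32589 were matched to a symbol; positions of genes are not printed except for promoters, which are from RefSeq (GRCm38.p6).

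Genes were filtered with filterByExpr over the 4 groups, scaled by TMM and tested with edgeR 4.0.16 (quasi-likelihood, R 4.3.3) in a single fit with 8 residual degrees of freedom; p-values were adjusted by Benjamini and Hochberg over all 16540 genes. Genes with an adjusted p below 0.05 are called lower or higher. The fit was tested on simulated data. Alternatives were DESeq2 1.42.0, library totals, TMM without the family, mitochondrial DNA genes left out, other filters, both strands, the compared libraries alone, a replicate block, each library left out, a fold limit and pseudogene counts added.

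The members, lists and tests were chosen with earlier results of these data known. Named in each comparison were all members called or, beyond 10, the 6 largest falls and rises, and always Rpl32, Rplp0, Rpl13a, Rps18, Rps6, Rplp1, Rplp2 and Rpsa, members that failed the filter, the 3 highest and lowest per coding length, other ribosomal proteins and paralogs, and up to 3 called genes in each direction of the other lists. Others are said to be chosen for their values. Coding lengths are from GENCODE M1. The results of some items that these rules name are not reported here.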

Additional observations from a re-analysis of the deposited data

How the results depend on the processing

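DESeq2 called 18 members in the cold in HY/HY mice, 5 between genotypes at 8°C and 6 at 30°C, where edgeR called 0, 1 and 0, and of all genes 0.985%, 7.87% and 3% were lower. Fitting the compared libraries alone gave 5 calls between genotypes at 8°C, where 10.2% of all genes were lower. A fold limit left 28 in the cold in +/+ mice, where 6.93% of all genes were lower. With library totals, which moved the median of all genes in the cold in +/+ mice from -0.07 to -0.41, the medians of the members were -0.88 (cold in +/+), -0.53 (cold in HY/HY) and 0.32 (interaction), and 0 members were called between genotypes at 8°C. Relative to all genes the cold medians were -0.469 and -0.373 with TMM and -0.472 and -0.385 with library totals. Library totals also turned the genotype difference at 8°C for Rpl32 (0.104), Rplp0 (0.096), Rplp1 (0.088), Rplp2 (0.025), Rps18 (0.012) and Rps6 (0.044), and the interaction of Rpsa (0.115). Without mitochondrial DNA genes in the total, the shares were 5.43% (+/+ 30°C), 3.18% (+/+ 8°C) and 2.97% (HY/HY 8°C). The cause of these shifts was not tested.

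With each library left out in turn, 19 to 59 members were called in the cold in +/+ mice and 0 to 32 in HY/HY mice. Between genotypes at 8°C, 0 to 3 were called. In the same fits 4.32% to 13.3%, 0% to 1.64% and 1.87% to 6.4% of all genes were lower. The median log2 fold change of the members ran from -0.551 to -0.5, -0.504 to -0.258 and -0.23 to -0.099. Between genotypes at 30°C it ran from -0.389 to -0.133, and the median interaction from -0.001, without HY/HY 30°C replicate 3, to 0.253. The interaction changed sign among these fits for Rpl13a (-0.103 to 0.183), Rpl32 (-0.015 to 0.296), Rps6 (-0.027 to 0.303) and Rpsa (-0.17 to 0.011), and the genotype difference at 8°C for Rpl32 (-0.06 to 0.008), Rplp0 (-0.075 to 0.013) and Rplp1 (-0.106 to 0.003). Of 1026 values of single members under alternatives, 968 kept direction and side of the threshold, 17 changed direction, 36 lost a call and 5 gained one. Most of the members and comparisons behind these values were not called in the main fit. A call could be lost only where there was one, so the 968 do not measure how well the calls held.

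The labels do not say that a replicate number marks a shared litter or day, and the numbers were not taken to pair the mice, since deviations of same-numbered libraries correlated above 0.1 in 11 of 18 pairs and not in all (-0.069 to 0.346). All 3 pairs of the HY/HY groups were above it (0.112, 0.199 and 0.303), and a library correlated best with its own number in 23 of 36 comparisons, against 12 if the number told nothing, which is a hint from the data and not from the design. With the replicate block, 57 members were called in the cold in +/+ mice, 0 in HY/HY mice, 2 between genotypes at 8°C, 1 at 30°C and 0 in the interaction, where 14%, 0.212%, 6.56%, 2.18% and 2.84% of all genes were lower.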
